A study of Rattus norvegicus with 12 samples.

Results

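The 9 genes described here are complement components and regulators: the C1q chain genes C1qa, C1qb and C1qc, the protease genes C1s and C2, the central component gene C3, the alternative pathway protease gene Cfb, the inhibitor gene Serping1 and the receptor gene C3ar1. They were chosen as the spots whose gene symbol on the array is one of these names, which gave 18 spots of the 44290 on the array and 9 of the 14871 genes measured. The RNA came from rat organotypic co-cultures, slices of entorhinal cortex and hippocampus kept alive side by side in a serum-containing medium, so that the entorhino-hippocampal pathway, the axon bundle between them, is present. The pathway was severed with a knife after 15 days in vitro. Axotomized cultures taken 1, 3 and 7 days later were compared with non-axotomized cultures kept for the same time, on 12 arrays of 2 colours. There were 2 biological replicates at every day, hybridised to 2 arrays apiece with exchanged dyes, and the pair of arrays was averaged. The labels do not say whether a replicate is 1 culture or a pool, and they name the rat as the species while their treatment protocol speaks of wild type mice.

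Each value is a log2 ratio that sets axotomized against non-axotomized cultures. Titles and channel order of the arrays make this direction the likely one, and every sign turns if the table runs the other way. A value of 0 means equal signal, and each error is the SD over the pair of replicates (n = 2), whose number limits the precision. The table holds no signal levels, so the absolute expression of a gene, the tissue's defining markers at the level of signal and the dimness of a spot could not be examined. Ratios of bulk cultures also cannot tell fewer cells of a type from less RNA per cell. Replicates correlated over all genes with a Pearson's r of 0.48 (day 1), 0.40 (day 3) and 0.29 (day 7), a description across genes, which are not independent. Between the dye-swapped arrays of a replicate r ran from -0.080 to 0.47, and the pair of day 1 replicate 2 had the value below 0.

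Complement is a cascade of proteins known from blood plasma and also made within the brain. The classical pathway starts with C1q, built of the chains A, B and C, which binds to immune complexes, dying cells and synapses and switches on the proteases C1r and C1s. Of these C1s cleaves C4 and C2, and the resulting enzyme splits C3. Factor B, the product of Cfb, amplifies the splitting of C3 in the alternative pathway. C1 inhibitor, the product of Serping1, blocks C1r and C1s, and the C3a fragment of C3 acts on cells through the receptor C3ar1. In brain, microglia are known as the main source of C1q, and C3 and C1 inhibitor are also made by astrocytes.

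No complement member passed the test at any day. In limma's test with Benjamini-Hochberg adjustment over all genes (adjusted p under 0.05), 0 of 9 members passed at day 1, where 0.592% of all genes did, 0 of 9 at day 3, where 1.03% did, and 0 of 9 at day 7, where 0% did. At an unadjusted p under 0.05 there were 4 of 9 at day 1, 4 of 9 at day 3 and 3 of 9 at day 7, beside 13.2%, 14.4% and 9.37% of all genes. The members had median log2 ratios of 0.08, 0.15 and -0.17 at days 1, 3 and 7, and all genes had 0.01, 0.01 and 0.00. Without day 7 replicate 2 the day 7 median was -0.024, and without day 7 replicate 1 it was -0.26. Without day 1 replicate 2 the day 1 median was -0.029, and without day 1 replicate 1 it was 0.18. At day 3, 8 of the 9 means lay above 0, and at day 7 all 9 means lay below 0, where 53.8% and 52.2% of all genes lay above 0. Day 7 replicate 2 had 9 of 9 members below 0 and day 7 replicate 1 had 6, with C1s, C3 and Cfb above 0. On all 4 arrays of a day, 2 of 9 members lay above 0 at day 1 (C1qb and C3ar1), 6 at day 3 (C1qa, C1qb, C1s, C2, C3 and Serping1) and 0 at day 7, beside 11.1%, 12.6% and 9.24% of all genes. Below 0 on all 4 arrays were 2 at day 1 (Cfb and Serping1), 0 at day 3 and 3 at day 7 (C1qb, C2 and Serping1), beside 7.56%, 10.4% and 8.18% of all genes. Single spots gave the same count, with 0 of 18 past the threshold at each day, beside 0.00452%, 0.102% and 0% of all 44290 spots. At an unadjusted p under 0.05 there were 7, 6 and 6 of the 18 spots, beside 11.5%, 12.2% and 8.72% of all spots. Other fits called some of the 18 spots. On the arrays with axotomized RNA in Cy5, 3, 1 and 1 passed at days 1, 3 and 7, beside 4.11%, 3.49% and 1.82% of all spots, and on the others 2 passed at day 3, beside 2.76%. After quantile normalization 1 passed at day 3, beside 0.3% of all spots. With the 12 arrays entered one by one and the replicate as a random block, 2 and 3 passed at days 1 and 3, beside 2.25% and 4.53%.

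**Figure D1:**
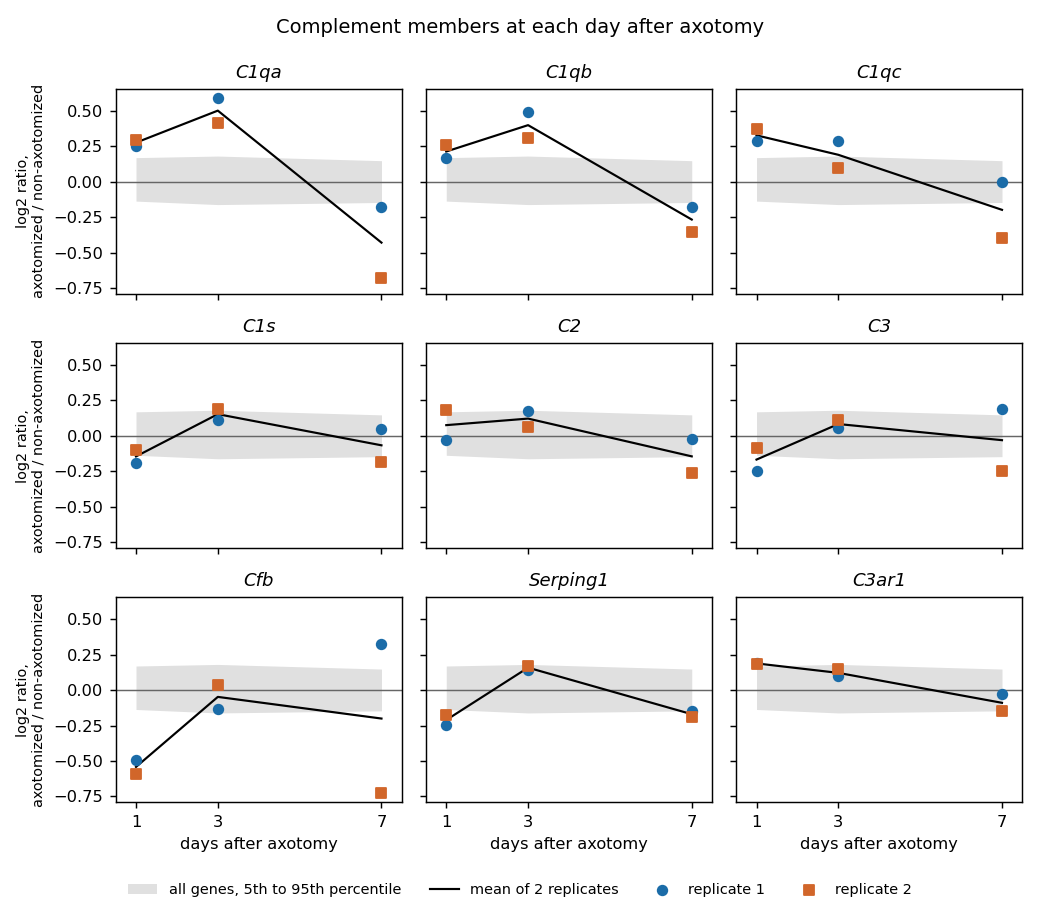
Log2 ratio (axotomized over non-axotomized, the likely direction) of each of the 9 members against days after axotomy, with circles for replicate 1, squares for replicate 2, a line through the mean and a grey band from the 5th to the 95th percentile of all genes. The C1q chains lie above 0 at days 1 and 3 and at or below 0 at day 7, Cfb lies near -0.54 at day 1, and the replicates of Cfb part at day 7.

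The 3 C1q chain genes had means above 0 at days 1 and 3 and below 0 at day 7, with the highest mean at day 3 for C1qa and C1qb and at day 1 for C1qc. C1qa had 0.25 and 0.30 in the replicates of day 1, 0.59 and 0.41 in those of day 3, and -0.18 and -0.68 in those of day 7. C1qb had 0.17 and 0.26 at day 1, 0.49 and 0.30 at day 3, and -0.18 and -0.35 at day 7. C1qc had 0.29 and 0.37 at day 1, 0.29 and 0.09 at day 3, and 0.00 and -0.39 at day 7. All replicates of days 1 and 3 lay above 0 and above both replicates of day 7 for each of the 3 genes. Day 7 replicate 2 was the lowest of the 6 replicates for each of them. Among all genes, 21.9% had both day 3 replicates above both day 7 replicates, and 24.9% had both day 1 replicates above both day 7 replicates.

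C1qa, the A chain, averaged 0.28 ± 0.029 at day 1 (SD, n = 2; adjusted p = 0.394 in limma's test), 0.50 ± 0.12 at day 3 (adjusted p = 0.131) and -0.43 ± 0.35 at day 7 (adjusted p = 0.373). On the linear scale the day 3 value is 1.42-fold above and the day 7 value 1.35-fold below the non-axotomized cultures. Its 95% interval in the fit ran from 0.22 to 0.79 at day 3 and from -0.72 to -0.14 at day 7, with no adjustment for the number of genes. Both intervals rest on 1 spread shared by the days. The day 7 interval is thus not that of the day 7 replicates alone, whose SD was 0.35. C1qa ranked at place 73 from the top of 14871 genes at day 3, and 0.269% of genes lay at or below it at day 7. Over the 14 other fits the day 3 value of C1qa ran from 0.41 to 0.88, and it did not pass in 11 of them. With 1 replicate of day 3 left out it was 0.41 or 0.59. Leaving out a replicate of day 7 kept it at 0.50 and changed only the spread that the fit shares between days.

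C1qb, the B chain, averaged 0.21 ± 0.067 at day 1 (adjusted p = 0.277 in limma's test), 0.40 ± 0.13 at day 3 (adjusted p = 0.0651) and -0.27 ± 0.12 at day 7 (adjusted p = 0.357). It was above 0 on all 4 arrays at day 1 and at day 3 and below 0 on all 4 at day 7. C1qc, the C chain, averaged 0.33 ± 0.059, 0.19 ± 0.14 and -0.20 ± 0.28 at days 1, 3 and 7 (adjusted p = 0.269, 0.465 and 0.586).

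The spots of the C1q genes mostly followed each other. Both C1qa spots had means of 0.27 to 0.28 at day 1, 0.49 to 0.51 at day 3 and -0.46 to -0.40 at day 7. The first C1qb spot had 0.63 and 0.61 in the replicates of day 3, and the second, annotated to another sequence record, had 0.35 and 0.00. Averaged over day 3 the first was at 0.62, 1.54-fold on the linear scale, with adjusted p = 0.0542 over all spots in limma's test. The 3 C1qc spots ran from 0.23 to 0.47 at day 1, from 0.07 to 0.33 at day 3 and from -0.25 to -0.17 at day 7.

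**Figure D2:**
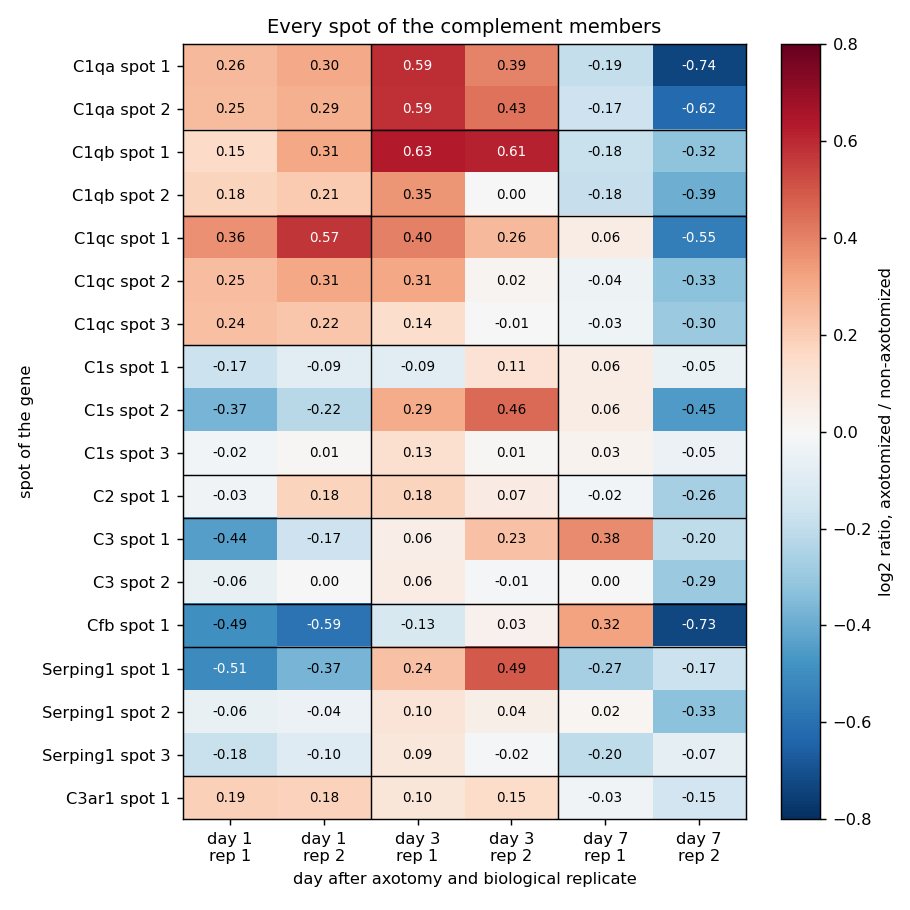
Log2 ratio (axotomized over non-axotomized, the likely direction) of each of the 18 spots of the members in each of the 6 biological replicates, by colour and number, with lines between genes and between days. Spots of C1qa and C1qc run together, while 1 of 3 spots of C1s and of Serping1 spans the widest range of values of its gene.

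In RefSeq's gene order for the assembly GRCr8, C1qb, C1qc and C1qa are direct neighbours on 1 chromosome. Promoter windows were at hand for C1qa, C1qb, C3 and C3ar1, 4 of the 9 members. The 250 bases before the start of C1qa and C1qb are shown because these neighbouring genes had like ratios, and those of C3 because its ratios differed from theirs (all RefSeq, GRCr8). C1qa lies at chr5:154419934-154420183, C1qb at chr5:154407828-154408077 and C3 at chr9:2201340-2201589, all on the minus strand, and each is written 5′ to 3′ along its gene with motif matches in capitals.
C1qa: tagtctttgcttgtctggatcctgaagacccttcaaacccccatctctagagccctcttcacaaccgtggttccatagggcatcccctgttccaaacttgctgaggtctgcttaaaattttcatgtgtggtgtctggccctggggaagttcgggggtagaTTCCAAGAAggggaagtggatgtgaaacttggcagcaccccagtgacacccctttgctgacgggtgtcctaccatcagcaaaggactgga
C1qb: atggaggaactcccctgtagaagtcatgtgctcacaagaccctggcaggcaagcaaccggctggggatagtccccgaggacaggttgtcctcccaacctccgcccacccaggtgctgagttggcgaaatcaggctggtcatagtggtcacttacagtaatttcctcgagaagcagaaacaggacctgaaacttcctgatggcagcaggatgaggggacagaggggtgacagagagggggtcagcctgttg
C3: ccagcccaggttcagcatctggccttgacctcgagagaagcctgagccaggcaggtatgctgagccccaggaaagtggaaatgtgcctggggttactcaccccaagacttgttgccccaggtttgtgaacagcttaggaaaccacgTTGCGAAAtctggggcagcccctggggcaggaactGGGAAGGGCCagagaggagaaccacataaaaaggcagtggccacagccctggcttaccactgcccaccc
The 6 motifs searched on both strands were a first and a second NF-kB pattern, TTGCNNAA for C/EBP, TTCNNNGAA for STAT, an IRF pattern and GAGGAAGT for PU.1. The STAT letters were found in C1qa 90 bases before the start, and none of the 6 motifs was found in C1qb. In C3 the C/EBP letters were found 104 bases and the second NF-kB letters 69 bases before the start. Of 33469 promoters of this length, 7.67% hold the STAT letters, 9.22% those of C/EBP, 5.07% the second NF-kB motif, 1.3% the first, 3.41% the IRF motif and 2.04% the PU.1 motif. The promoter of C3ar1, not printed, holds the first NF-kB pattern 64 bases before the start on the opposite strand. A match is a description of letters and not a binding site.

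Of the classical pathway proteases, C1s cleaves C4 and C2, and C2 is the part of the C3-splitting enzyme that cuts. C1s had -0.19 and -0.10 in the replicates of day 1, 0.11 and 0.19 at day 3, and 0.05 and -0.18 at day 7. Both day 3 replicates lay above the other 4. The means were -0.14 ± 0.063, 0.15 ± 0.056 and -0.07 ± 0.16 (adjusted p = 0.408, 0.352 and 0.789 in limma's test). The 3 C1s spots did not follow each other, with the second at -0.37 and -0.22 at day 1 and 0.29 and 0.46 at day 3, and the third between -0.05 and 0.13 in all 6 replicates. C2, with 1 spot, had -0.03 and 0.18 at day 1, 0.18 and 0.07 at day 3, and -0.02 and -0.26 at day 7, with means of 0.08 ± 0.15, 0.12 ± 0.080 and -0.14 ± 0.17 (adjusted p = 0.741, 0.565 and 0.622).

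C3, the component on which all complement pathways meet, had both replicates below 0 at day 1, both above 0 at day 3 and 1 on each side at day 7. It had -0.25 and -0.08 at day 1, 0.06 and 0.11 at day 3, and 0.19 and -0.25 at day 7, with means of -0.17 ± 0.12, 0.08 ± 0.039 and -0.03 ± 0.31 (adjusted p = 0.556, 0.784 and 0.951 in limma's test). At day 1 the mean of C3 lay below the 5th percentile of all genes, -0.14. Its first spot had -0.44 and -0.17 at day 1 and 0.06 and 0.23 at day 3, while the second, annotated to another sequence record, stayed between -0.06 and 0.06 at days 1 and 3 and had -0.29 in day 7 replicate 2.

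Cfb had the lowest value of the 9 members at day 1. Its 1 spot had -0.49 and -0.59 at day 1, -0.13 and 0.03 at day 3, and 0.32 and -0.73 at day 7. All 4 arrays of day 1 lay below 0, between -0.76 and -0.31, and the replicates of day 7 were farther apart than those of any other member. The means were -0.54 ± 0.073 at day 1, 1.46-fold below the non-axotomized cultures, -0.05 ± 0.12 at day 3 and -0.20 ± 0.74 at day 7 (adjusted p = 0.39, 0.952 and 0.825 in limma's test). At day 1, 0.370% of all genes lay at or below Cfb, and the 95% interval of its mean, which takes in the spread of day 7, ran from -1.10 to 0.02. In RefSeq's order Cfb is the direct neighbour of C2, whose day 1 value was 0.08 ± 0.15.

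Serping1 had the smallest adjusted p of the members at day 1 and at day 7. It had -0.25 and -0.17 at day 1, 0.14 and 0.17 at day 3, and -0.15 and -0.19 at day 7. All 4 arrays lay below 0 at day 1, above 0 at day 3 and below 0 at day 7, and the replicates of day 3 lay above the other 4. The means were -0.21 ± 0.054, 0.16 ± 0.021 and -0.17 ± 0.030 (adjusted p = 0.0891, 0.13 and 0.306 in limma's test). Its first spot spanned more than the other 2, with -0.51 and -0.37 at day 1, 0.24 and 0.49 at day 3, and -0.27 and -0.17 at day 7. The second had -0.06 and -0.04 at day 1 and 0.10 and 0.04 at day 3, and the third -0.18 and -0.10 at day 1 and 0.09 and -0.02 at day 3.

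C3ar1, the receptor of the C3a fragment, had 0.19 and 0.18 at day 1, 0.10 and 0.15 at day 3, and -0.03 and -0.15 at day 7. The replicates of day 1 lay above those of day 3, which lay above those of day 7. The means were 0.19 ± 0.0057, 0.12 ± 0.035 and -0.09 ± 0.086 (adjusted p = 0.161, 0.269 and 0.562 in limma's test), at most 1.14-fold on the linear scale.

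Differences between days were tested in the same fit. None of the 9 members passed for day 7 minus day 3, where 0.356% of all genes passed, for day 3 minus day 1, where 0% passed, or for day 7 minus day 1, where 0.121% passed. At an unadjusted p under 0.05 there were 6, 2 and 4 members in these 3 differences, beside 13%, 8.85% and 12.9% of all genes. For day 7 minus day 3 all 9 members had a difference below 0, with a median of -0.27, against 0.00 over all genes. C1qa had -0.93 (adjusted p = 0.0969 in limma's test), C1qb -0.67 (adjusted p = 0.0724), Serping1 -0.33 (adjusted p = 0.0801) and C1qc -0.39 (adjusted p = 0.314). For 7 of 9 members both day 3 replicates lay above both day 7 replicates, where 21.9% of all genes did, the exceptions being C3 and Cfb. No member had both day 7 replicates above both of day 3 or both of day 1, where 20.9% and 21.2% of all genes did. Both day 3 replicates lay above both day 1 replicates for 6 of 9 members, where 17.1% of all genes did, and the reverse held for C3ar1, 1 of 9, where 20.7% did. These comparisons share the samples of a day, so these counts are not independent of each other. The largest of the member differences for day 3 minus day 1 was that of Cfb at 0.49 (adjusted p = 0.753), and that of Serping1 was 0.37 (adjusted p = 0.141). Of the 18 spots, 0 passed in any of these differences or as an average of days, where 0.00903% of all spots passed for day 7 minus day 1, 0% for the other differences and 0.00226% for the average. At an unadjusted p under 0.05 there were 9 spots for day 7 minus day 3, 3 for day 3 minus day 1, 8 for day 7 minus day 1 and 3 for the average, beside 10.5%, 7.44%, 10.7% and 14% of all spots.

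No member passed as an average of the 3 days or in the F test over the days, where 0.316% and 0.525% of all genes did, and 3 of 9 had an unadjusted p under 0.05 as an average, beside 14.9% of all genes. When the 12 arrays were entered one by one with a dye term and the replicate as a random block, C3ar1 and Serping1 passed at day 1 (adjusted p = 0.0114 and 0.0121 in limma's test), where 3.99% of all genes did. In that fit C1qb, Serping1 and C1qa passed at day 3 (adjusted p = 0.00507, 0.0384 and 0.0442), where 6.44% of all genes did. For day 7 minus day 3, C1qb, Serping1, C1qa and C3ar1 passed there (adjusted p = 0.00266, 0.00639, 0.0132 and 0.031), where 5.59% of all genes did. For day 3 minus day 1 Serping1 passed there and for day 7 minus day 1 C1qb and C3ar1, where 1.95% and 4.88% of all genes did, and no member passed at day 7 or as an average, where 1.3% and 4.67% did. Arrays of the same RNA pair are not separate biological replicates, and the correlation between them in this fit was 0.23.

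The dye orientation moved with the day 1 values. With the axotomized RNA in Cy5, C1qa averaged -0.02, C1qb 0.06 and C1qc 0.03 at day 1, and with it in Cy3 they averaged 0.57, 0.37 and 0.62. The arrays of day 1 replicate 2 were farthest apart, at -0.19 and 0.78 for C1qa. The median absolute difference between orientations at day 1 was 0.26 over the members and 0.12 over all genes, and at day 3 it was 0.10 over both. At day 3 both orientations lay above 0 for C1qa (0.47 in Cy5, 0.53 in Cy3) and for C1qb (0.35 and 0.45), and at day 7 both lay below 0 for C1qa (-0.59 and -0.27) and for C1qb (-0.31 and -0.22). The part of the dyes in the day 1 values of C1q was not tested. On the Cy5 arrays alone C3ar1 at 0.31 and Serping1 at -0.33 passed at day 1 (adjusted p = 0.0296 and 0.0215 in limma's test), where 4.4% of all genes did, and the same pair passed as an average of days, where 18.6% did. On the Cy3 arrays they had 0.07 and -0.09 at day 1 (adjusted p = 0.483 and 0.3). C3ar1 was higher in Cy5 than in Cy3 at each day, with 0.23 against 0.02 at day 3 and 0.03 against -0.21 at day 7, the opposite order to that of the C1q chains. At day 1 C1s, C2, C3, Cfb and Serping1 were also higher in Cy3 than in Cy5, by 0.21 (C2) to 0.35 (Cfb).

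**Figure D3:**
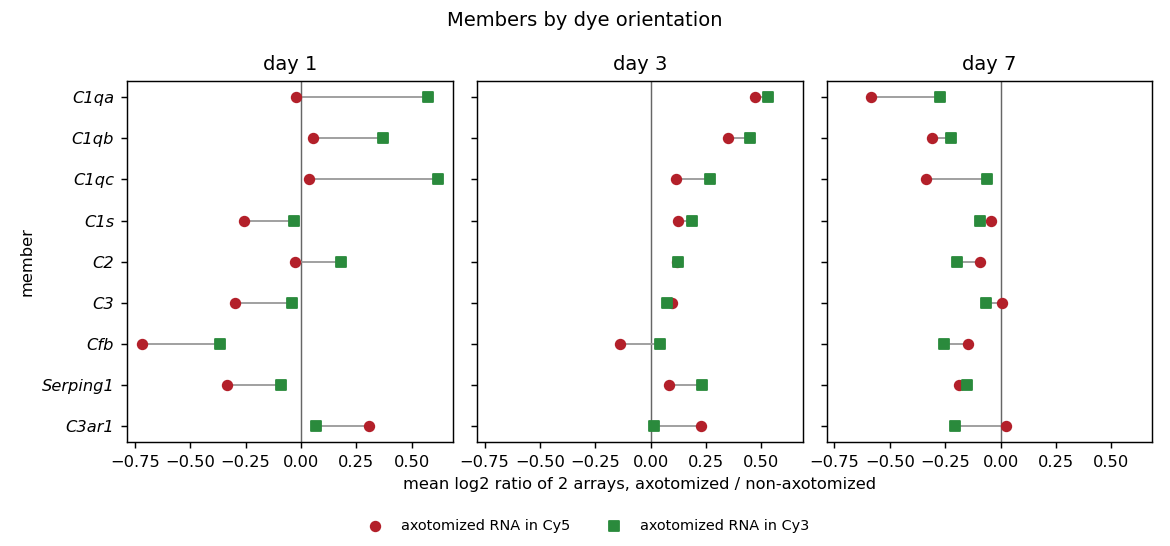
Mean log2 ratio (axotomized over non-axotomized, the likely direction) of the 2 arrays of each dye orientation, for each member at days 1, 3 and 7, with red circles for axotomized RNA in Cy5 and green squares for axotomized RNA in Cy3. At day 1 the C1q chains lie between -0.02 and 0.06 in Cy5 and between 0.37 and 0.62 in Cy3, and at day 3 the 2 orientations of C1qa and C1qb lie close to each other.

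Of the wider pathway, 44 other complement genes of 50 listed symbols were measured. In limma's test 1 of the 44 rose at day 3 and none fell, and 0 of 44 passed at days 1 and 7, beside 0.592% and 0% of all genes, with 1.03% at day 3. At an unadjusted p under 0.05 there were 7, 8 and 5 of 44 at days 1, 3 and 7, beside 13.2%, 14.4% and 9.37% of all genes. Their medians at days 1, 3 and 7 were -0.01, 0.06 and -0.01, and 21, 31 and 20 of 44 lay above 0, beside 56.4%, 53.8% and 52.2% of all genes.

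The gene that passed was C5ar1, the receptor of the C5a fragment, which like C3a recruits and activates myeloid cells. It had 0.48 and 0.27 at day 1, 0.56 and 0.44 at day 3, and -0.46 and -0.26 at day 7. All 8 arrays of days 1 and 3 lay above 0 and all 4 of day 7 below 0. C5ar1 rose at day 3 by 0.50 ± 0.080, 1.42-fold (adjusted p = 0.0494 in limma's test), and its day 7 minus day 3 difference was -0.87 (adjusted p = 0.0497). At days 1 and 7 it had 0.37 ± 0.15 and -0.36 ± 0.14 (adjusted p = 0.113 and 0.306). Both calls stood at the edge of the threshold. The day 3 call was lost in 11 of 14 other fits, with adjusted p from 0.0527 to 0.438, and kept in 3, with adjusted p from 0.00308 to 0.049. The call of the difference was lost in 11 of 13, with adjusted p from 0.0527 to 0.344, and kept in 2, with adjusted p of 0.00141 and 0.0492. Every fit that left out a replicate, any of the 6, was among those that lost both calls, with values from 0.44 to 0.56 at day 3 and from -0.97 to -0.76 for the difference.

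By role, C1r, the partner protease and direct neighbour of C1s, had -0.16 and 0.09 at day 1, 0.33 and 0.35 at day 3, and -0.04 and -0.25 at day 7 (adjusted p = 0.119 at day 3 in limma's test). Cfi, the protease that inactivates C3b, had -0.19 and -0.10 at day 1, 0.15 and 0.17 at day 3, and -0.02 and -0.07 at day 7 (adjusted p = 0.209, 0.13 and 0.747). Itgam, a chain of complement receptor CR3, had -0.07 and 0.12 at day 1, 0.20 and 0.39 at day 3, and -0.16 and -0.17 at day 7 (adjusted p = 0.123 at day 3). The neuronal pentraxin gene Nptx2 ran the other way, with -0.30 and -0.21 at day 1, 0.03 and 0.14 at day 3, and 0.40 and 0.57 at day 7 (adjusted p = 0.238 at day 7). Nptxr, the receptor of that family, had 0.02 and 0.39 at day 1, 0.02 and 0.13 at day 3, and 0.47 and 0.27 at day 7 (adjusted p = 0.365 at day 7). All 4 arrays of day 7 lay above 0 for Nptx2 and Nptxr. The other genes of the 5 on that list, Nptx1, Crp and Apcs, had -0.04, -0.05 and -0.03 at day 7, and the median of the list there was -0.03. The 6 terminal pathway genes measured, whose products form the membrane pore, lay between -0.08 and 0.15 on all days.

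**Figure D4:**
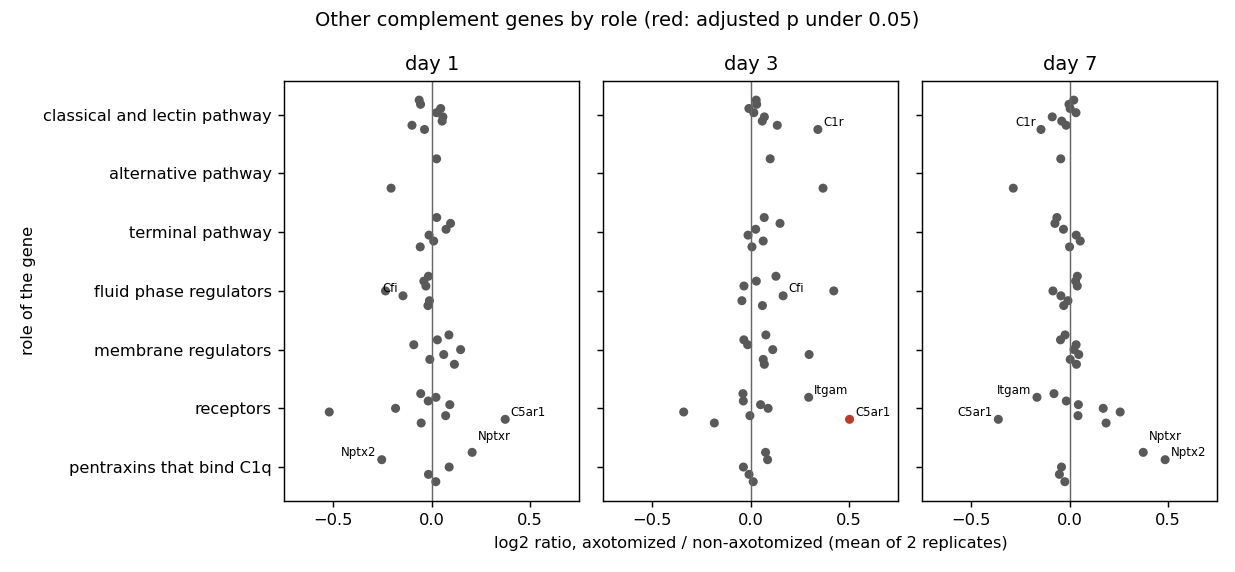
Mean log2 ratio (axotomized over non-axotomized, the likely direction) of 44 other complement genes at days 1, 3 and 7, grouped by role, with the genes past the adjusted threshold in red and the named genes labelled. At each day at least 37 of the 44 genes lie within 0.2 of 0, and C5ar1 at day 3 is the red point. For all genes, not drawn, the 5th to 95th percentiles also lie within 0.2 of 0. They run from -0.14 to 0.17 at day 1, from -0.16 to 0.18 at day 3 and from -0.15 to 0.15 at day 7.

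Medians of the microglia and macrophage markers and of the choroid plexus markers lay on the same side of 0 as those of the C1q chains in all 6 replicates. Other lists came close to this, with medians near 0 where they differed. The fibroblast and meninges markers differed only in day 1 replicate 1 (-0.0039) and the neutrophil markers only in day 3 replicate 2 (-0.0028). The astrocyte markers differed only in day 7 replicate 1 (0.031). Of the 15 microglia and macrophage markers, 13 lay above 0 at day 1, 14 at day 3 and 3 at day 7, beside 56.4%, 53.8% and 52.2% of all genes. None of them passed the test at any day, beside 0.592%, 1.03% and 0% of all genes. Their medians were 0.03 and 0.17 in the replicates of day 1, 0.24 and 0.15 at day 3, and -0.11 and -0.11 at day 7. The medians of the 3 C1q chains were 0.25 and 0.30 at day 1, 0.49 and 0.30 at day 3, and -0.18 and -0.39 at day 7, farther from 0 than the marker median in each replicate. Single markers reached as far as the chains. P2ry12 had the highest marker mean at days 1 and 3, 0.50 and 0.62, above each C1q chain. Cd68 had the lowest at day 7, -0.38, between C1qa and C1qb. The part of microglial number or activity in the C1q values was not tested. Itgam is in this marker list and in that of the complement receptors.

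The 6 choroid plexus markers had medians of 0.02 and 0.03 at day 1, 0.04 and 0.23 at day 3, and -0.03 and -0.16 at day 7, and 4, 6 and 1 of them lay above 0. Among them Ttr, the transthyretin gene, had 1.46 at day 3 and -2.17 at day 7, neither past the test. The 10 astrocyte markers had medians of 0.32 and 0.31 in the replicates of day 3 and of 0.03 and -0.02 at day 7. At day 3, 8 of the 10 lay above 0, and the lowest was Gfap at -0.01. Glul, Gjb6 and Aqp4 passed the test at day 3, where 1.03% of all genes did. The 8 neuron markers had 0.14 and 0.13 at day 7, and the 6 measured oligodendrocyte markers had 0.40 and 0.29 there. All 6 oligodendrocyte markers lay above 0 at day 3, with medians of 0.31 and 0.25 in the replicates, and Sox10 alone of them passed the test. The 6 fibroblast and meninges markers had medians of 0.09 and 0.24 at day 3, and the 5 endothelial markers lay between -0.15 and 0.13 on all days. The 4 neutrophil markers lay between -0.11 and 0.15 on all days. The part of these cells in the complement values was not tested.

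**Figure D5:**
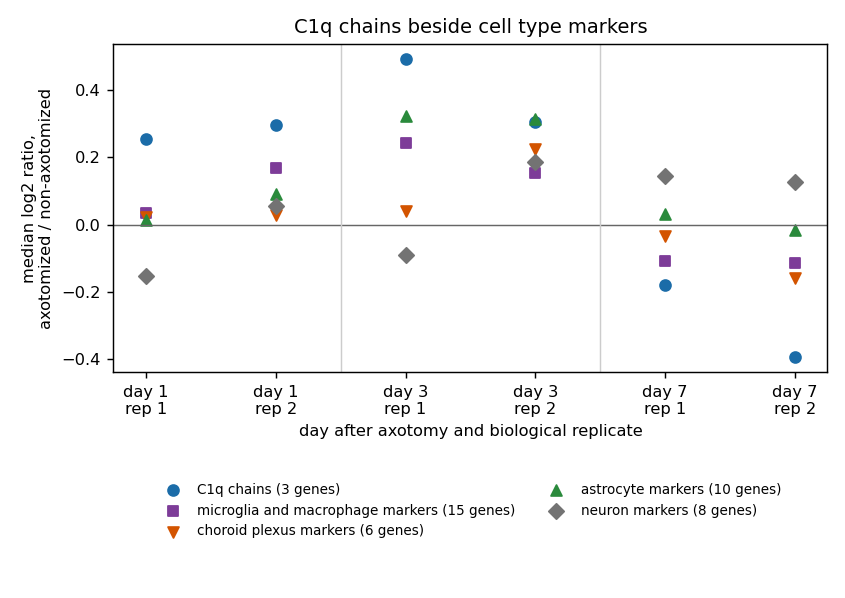
Median log2 ratio (axotomized over non-axotomized, the likely direction) in each of the 6 replicates for the 3 C1q chains and for lists of microglia and macrophage, choroid plexus, astrocyte and neuron markers. The C1q chains, the microglia markers and the choroid plexus markers lie above 0 at days 1 and 3 and below 0 at day 7, while the neuron markers lie above 0 at day 7.

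Likeness between genes was measured as the root mean square difference of the log2 ratios over the 6 replicates. The nearest genes are given for C1qa, C1qb and Cfb, the members whose own root mean square was at least 0.3. Nearest to C1qa were Apoc1 at 0.124, Tnfaip8l2 at 0.137 and C1qb at 0.151. Nearest to C1qb were Ptpn6 at 0.0677, Tnfaip8l2 at 0.0795 and Gja1 at 0.0869. Nearest to Cfb were Scd at 0.244, Bmp2 at 0.275 and Pira2 at 0.292, so no gene came as near to Cfb as the nearest came to C1qa and C1qb. Between members, those with smaller values included, C1s was the second nearest of all genes to C3, at 0.0793, and the 11th nearest of all genes to Serping1, at 0.0909. In the other direction C3 was the 16th and Serping1 the 43rd nearest to C1s. C1qa was the 67th and C1qc the 78th nearest to C1qb. The own root mean squares of C1s, C3 and Serping1 were 0.148, 0.175 and 0.183. C1qa and C1qc differed by 0.229, with C1qc the 40th nearest gene to C1qa and C1qa the 1535th nearest to C1qc. Small differences are easier to reach for genes that stay near 0, so the values of different members are not on 1 scale of likeness.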

How the data were processed

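The deposited values are 1 log2 ratio per spot and array for 12 arrays and 44290 spots. The authors worked with limma, per the submitters' processing notes, and its version, the background correction, the normalization and the log base are not given in the sources used here. Base 2 follows limma's convention. Column medians lay between -0.022 and 0.027. On 733 spots the value changed strongly when the dyes were exchanged (by over 1 to either side of the mean), and the 731 of them without a gene symbol had medians of -4.58 on arrays with axotomized RNA in Cy5 and 3.92 on the others, so all columns run in 1 RNA direction.

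Spots with exactly 1 symbol in the platform annotation were averaged per gene, and then over both arrays of each replicate. Limma 3.58.1 (R 4.3.3, data.table version 1.17.8) fitted 1 coefficient per day to the 6 replicates, with 3 residual and 2.72 prior degrees of freedom, two-sided, with Benjamini-Hochberg adjustment over all genes. The days share 1 estimate of spread. P-values rest on the spread between these replicates, pooled over the days and drawn towards that of all genes. The labels call the replicates biological, but how independent their cultures were is not given. The same model was fitted to single spots. It was also run on simulated data with independent noise of the fit's own spread and no dye effect. That run cannot show how the model does on these arrays.

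The members, lists, motifs and tests were chosen with earlier results of these data known. Named were all members, other complement genes past the threshold or among the 3 smallest p of a day, and the 3 genes nearest to a member. Itgad and Cd59b were matched to Itgax and Cd59 by synonym or gene ID. These spots carry other symbols than the listed ones, so their values may not be those of the listed genes. Alternatives were quantile normalization, median centring, 1 dye orientation, the median of spots, each day alone, a replicate block, single arrays with a dye term, and each replicate left out. Figures used Python 3.11.15 and matplotlib 3.10.9.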

Additional observations from a re-analysis of the deposited data

Results flagged for a closer look

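Among the members and the other complement genes, the difference between days 7 and 3 passed the test for 1 gene, C5ar1. It had -0.87 on the log2 scale (adjusted p = 0.0497 in limma's test), with both replicates of day 7 below 0 and both of day 3 above 0. The C5ar1 value rests on 1 spot. Of the cell type markers, Glul passed for the same difference, at -0.85 (adjusted p = 0.0412), where 0.356% of all genes did. No day held enough replicates to look for a replicate far from the others of its day.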

How the results depend on the processing

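The count of 0 members past the threshold held at day 7 in all fits run and elsewhere changed in a few. It became 2 at day 1 and 2 as an average of days with axotomized RNA in Cy5 only, where 4.4% and 18.6% of all genes passed. With all 12 arrays, a dye term and a random block it became 2 at day 1 and 3 at day 3. Of all genes 3.99% and 6.44% passed there. In that fit 1.95%, 5.59% and 4.88% of all genes passed for day 3 minus day 1, day 7 minus day 3 and day 7 minus day 1. The count of members became 1, 4 and 2 for these differences. With 1 replicate left out it ran from 0 to 1 at day 3. In Cy5 only, 3, 1 and 1 single member spots passed at days 1, 3 and 7, beside 4.11%, 3.49% and 1.82% of all spots. In Cy3 only, 2 passed at day 3, beside 2.76%. With quantile normalization 1 passed at day 3, beside 0.3%. In the random block 2 and 3 passed at days 1 and 3, beside 2.25% and 4.53%. The cause was not tested.

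All genes past the threshold, 88 at day 1, 153 at day 3 and 0 at day 7, became 654 and 298 at days 1 and 3 in Cy5 only, 56 at day 1 in Cy3 only, 13 and 0 at days 1 and 3 with each day alone, 75 and 15 at days 3 and 7 with quantile normalization, and 594, 958 and 194 at days 1, 3 and 7 in the random block. With 1 replicate left out they ran from 0 to 36, from 0 to 84 and from 0 to 18, the last without day 7 replicate 2. The replicate block gave 53 and 66 at days 1 and 3 and 0 members on any day. The main fit did not pair samples by replicate number. Deviations of same-numbered replicates correlated over genes at 0.26 between days 1 and 3, -0.068 between days 1 and 7 and 0.014 between days 3 and 7. With 2 replicates per day these values cannot decide whether same-numbered replicates belong together.

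The members' median at day 3, 0.15, was 0.12 in Cy5 only and with the median of spots, 0.18 in Cy3 only, 0.15 with median centring, and from 0.14 to 0.15 with 1 replicate left out. At day 7 it ran from -0.26 to -0.024 with 1 replicate left out. Signs turned for C1qa (-0.021), C2 (-0.028) and the members' median (-0.028) at day 1, and for C3 (0.0059) and C3ar1 (0.027) at day 7, in Cy5 only, and for Cfb at day 3 (0.041) in Cy3 only. With 1 replicate left out, C2 and the members' median at day 1 ran from -0.029 to 0.18, Cfb at day 3 from -0.13 to 0.035, and at day 7 C1s from -0.18 to 0.049, C3 from -0.25 to 0.19 and Cfb from -0.73 to 0.32. For day 7 minus day 3, C3 ran from -0.33 to 0.11 and Cfb from -0.68 to 0.37. Quantile normalization gave C1qa 0.88 at day 3 and -0.89 at day 7, and C5ar1 0.89 at day 3. C5ar1 was added to these fits after its values were seen.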
